A study of Mus musculus with 4 samples.

Results

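Genes for the subunits of the mitochondrial respiratory chain and the ATP synthase were followed in mouse islets with and without a targeted retinoblastoma gene. The genes were taken by symbol: names that start with Nduf (other than the Ndufaf assembly factors), Uqcr, Cox4 to Cox8 or Atp5, together with Sdha, Sdhb, Sdhc, Sdhd and Cyc1. This gave 85 genes, measured by 105 probes, of 45616 genes and unnamed transcripts on the array. Of the 85, 84 passed the filter on dim probes, which asked for signal well above background in both samples of either genotype, and these 84 were well above background on all 4 arrays. The remaining gene, Cox8c, is described at the end of the account of complex IV. A further 4 protein-coding genes that meet the symbol rule, Cox5b, Ndufb1, Ndufb4b and Ndufb4c, and 19 pseudogenes had no probe that could be matched to them.

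The respiratory chain sits in the inner mitochondrial membrane. Complex I passes electrons from NADH, and complex II from succinate, to ubiquinone. Complex III hands them on to cytochrome c and complex IV to oxygen, and the proton gradient built on the way drives ATP synthesis by complex V. In beta cells the ATP made from glucose closes potassium channels and so starts insulin release. Most subunits are encoded in the nucleus and a small core in mitochondrial DNA, for which no probe was matched here. NRF1, GABP and YY1 are transcription factors known to bind promoters of many of the nuclear genes.

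Transcript levels were read on Agilent arrays for mouse genes with 1 dye. Total RNA of isolated islets, amplified before labelling, came as 2 samples of genotype Pdx1-Cre, titled wild type by the submitters, and 2 of genotype Pdx1-Cre:Rbf/f, titled Rb-deficient. The labels give no age or sex and do not say whether a sample is 1 animal or a pool, so p-values measure only the spread between these samples. Both groups carry Pdx1-Cre, a Cre recombinase driven by the promoter of Pdx1, which acts across the pancreatic lineage including exocrine cells, and only the Rb-deficient group carries the floxed Rb allele. Signals are given as log2 of the processed intensity minus the 75th percentile of the same array, so that 0 is the level of that percentile. Differences are Rb-deficient minus wild type. Levels of different genes come from different probes and were not compared.

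The targeted gene Rb1 had log2 signals of 0.28 and 0.86 in the wild type samples and -0.48 and -0.90 in the Rb-deficient samples. The Rb-deficient values lay below both wild type values, and limma gave an adjusted p of 0.73 over all genes. Whether that probe lies in the floxed part is not known here. All 10 beta cell markers, among them Ins1, Ins2 and Mafa, were well above background on all arrays. The samples differed in other ways. Wild type sample 1 had signal for 4 genes of the Y chromosome (Ddx3y, Eif2s3y, Kdm5d, Uty) and none well above background for Xist, the opposite of the other 3 arrays, and 76.5% of its probes were well above background against 59.0% to 59.9% on the others. Relative to the wild type mean, the 10 acinar markers were at median log2 values of -0.32 and -1.13 in Rb-deficient samples 1 and 2, the 5 alpha cell markers were at -0.48 and -1.19, and the 9 macrophage markers were at 0.37 and 1.25. The wild type samples, which differ in the Y-linked genes and Xist, cannot be repeats of the same RNA, and for the Rb-deficient samples this is not known. In whole islets fewer cells of a type and less RNA per cell cannot be told apart.

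Promoters of some of the genes are shown first. They set widely expressed subunits that hold matches beside isoforms of restricted tissue range, which differed in how much they varied between samples. Other widely expressed subunits held no match, as given after the sequences. Each sequence runs 5′ to 3′ from 250 bases before to 50 bases after the annotated start, from RefSeq on GRCm38.p6. Capitals mark matches on either strand to NRF1 (GCGCA and GCGC with any 1 base between), GABP (CCGGAAG), YY1 (AAGATGG) or E2F (TTTCCCGC or TTTGGCGC), the last being the factors that Rb binds. Cox6a1 (chr5:115348909-115349208, minus strand) held 2 NRF1 and 1 GABP match. Cox8a (chr19:7217567-7217866, minus strand) held 1 E2F and 2 GABP matches. Cox5a (chr9:57520982-57521281, plus strand), shown because of it, held 1 E2F match. Cox7b2 (chr5:71548156-71548455, minus strand) and Cox8b (chr7:140900397-140900696, minus strand) held none.
Cox6a1: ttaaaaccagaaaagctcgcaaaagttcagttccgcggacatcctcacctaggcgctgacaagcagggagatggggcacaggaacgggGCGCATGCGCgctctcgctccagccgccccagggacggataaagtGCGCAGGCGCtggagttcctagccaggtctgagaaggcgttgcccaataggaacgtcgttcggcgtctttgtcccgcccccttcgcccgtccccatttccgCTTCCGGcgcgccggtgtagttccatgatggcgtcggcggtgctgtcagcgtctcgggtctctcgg
Cox8a: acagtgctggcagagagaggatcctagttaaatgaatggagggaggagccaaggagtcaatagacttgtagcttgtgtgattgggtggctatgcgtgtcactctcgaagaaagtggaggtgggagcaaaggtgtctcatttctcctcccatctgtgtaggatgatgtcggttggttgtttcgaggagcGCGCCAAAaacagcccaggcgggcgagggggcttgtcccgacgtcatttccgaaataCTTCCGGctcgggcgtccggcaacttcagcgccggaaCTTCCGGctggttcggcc
Cox5a: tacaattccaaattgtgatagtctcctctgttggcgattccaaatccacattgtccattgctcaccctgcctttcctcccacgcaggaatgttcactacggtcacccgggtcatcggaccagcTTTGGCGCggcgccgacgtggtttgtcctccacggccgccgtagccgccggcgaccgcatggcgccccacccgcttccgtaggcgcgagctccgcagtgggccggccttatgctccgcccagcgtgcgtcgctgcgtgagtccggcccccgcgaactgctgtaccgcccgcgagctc
Cox7b2: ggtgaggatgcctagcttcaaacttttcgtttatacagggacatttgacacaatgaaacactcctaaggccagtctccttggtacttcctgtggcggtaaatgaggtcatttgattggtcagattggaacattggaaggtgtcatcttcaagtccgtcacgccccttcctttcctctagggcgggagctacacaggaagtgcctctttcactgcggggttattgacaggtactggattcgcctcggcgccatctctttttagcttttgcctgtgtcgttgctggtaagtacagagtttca
Cox8b: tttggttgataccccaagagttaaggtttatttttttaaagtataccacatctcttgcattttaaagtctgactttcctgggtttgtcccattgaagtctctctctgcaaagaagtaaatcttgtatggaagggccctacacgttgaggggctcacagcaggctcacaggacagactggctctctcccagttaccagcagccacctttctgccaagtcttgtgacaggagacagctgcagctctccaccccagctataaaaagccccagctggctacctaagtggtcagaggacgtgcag

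The table of promoters held 73 entries for 68 of the 84 genes. An NRF1 match stood in 18 of the 73, or 24.7%, against 4.6% of all 32851 promoters of the table. A GABP match stood in 17 (23.3%, against 8.86% of all) and a YY1 match in 11 (15.1%, against 6.34%). An E2F match stood in 2 (2.74%, against 1.56%), those of Cox8a and Cox5a. No matches of different motifs overlapped in the 73. The 73 promoters were also richer in CG dinucleotides, with a median of 19 against 7 over all promoters, and an NRF1 match holds several. None of the 4 promoters in the table for isoforms of restricted range held any of these motifs. Nor did those of the widely expressed Cox7b, Cox7a2, Ndufa4 and Cox7a2l, so the sequences printed above do not separate the kinds of gene. A match describes letters only, and its absence says nothing about a factor's binding.

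With arrays scaled to their 75th percentiles, the respiratory chain genes differed little between Rb-deficient and wild type islets. No member was called by limma after Benjamini-Hochberg adjustment across the 26380 genes tested, where 0% of genes were called and 1493 had an unadjusted p under 0.05, and the lowest adjusted p among the members was 0.82. At an unadjusted p under 0.05 there was 1 member, Cox7b2, lower in Rb-deficient islets, where 5.66% of all genes had such a p, 4.18% lower and 1.48% higher. The median difference over the 84 was 0.070 on the log2 scale, with 60 higher and 24 lower in mean. The median over all genes was -0.068, and 41.9% of them were higher in mean. Because most members are bright, genes brighter than the 75th percentile are the nearer background, a set chosen after the values were seen. Among its 10396 genes 60.5% were higher in mean and the median was 0.051, close to that of the members.

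The size of the differences was small beside that of other genes. The median absolute difference was 0.084 over the members, 0.24 over all genes and 0.14 over the brighter genes. A difference of at least 1 on the log2 scale, which is 2-fold, was seen in 1 member, or 1.19%, against 9.73% of all genes and 1.95% of the brighter genes. For 78 of the 84 members the 95% interval of the difference, from limma, lay within 2-fold in both directions, which is 92.9%, against 50.7% of all genes and 78.1% of the brighter genes. The median interval reached 0.50 to each side, so shifts below 0.50 in a given gene could not be resolved with 2 samples a group.

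**Figure D1:**
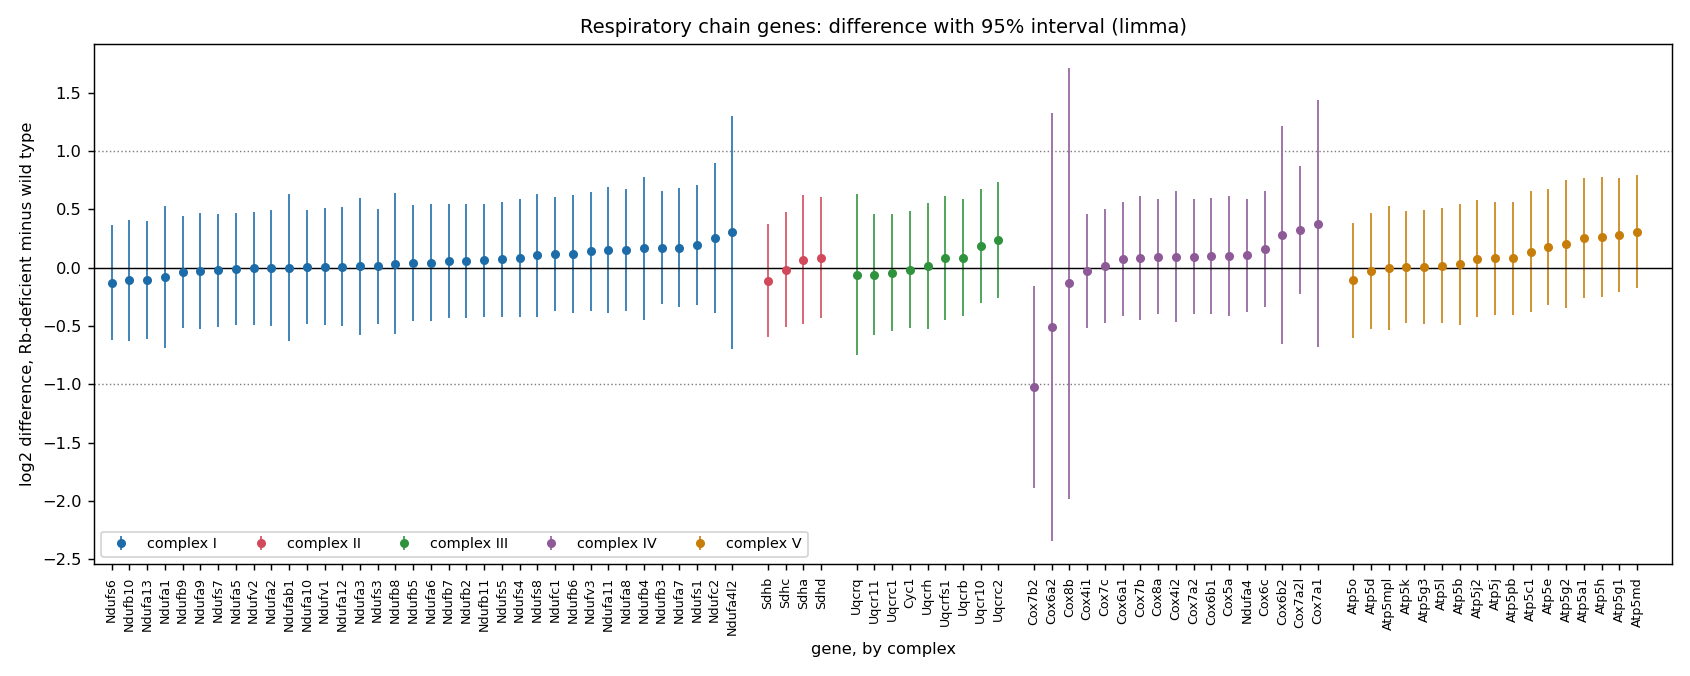
Difference in log2 signal, Rb-deficient minus wild type, for 83 of the 84 genes in order within each complex, with 95% intervals from limma and dotted lines at 2-fold. The points lie between -0.13 and 0.38 except those of Cox7b2 at -1.02, Cox6a2 at -0.51 and Cox8b at -0.14, and the widest intervals belong to isoform genes of complex IV.

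**Figure D2:**
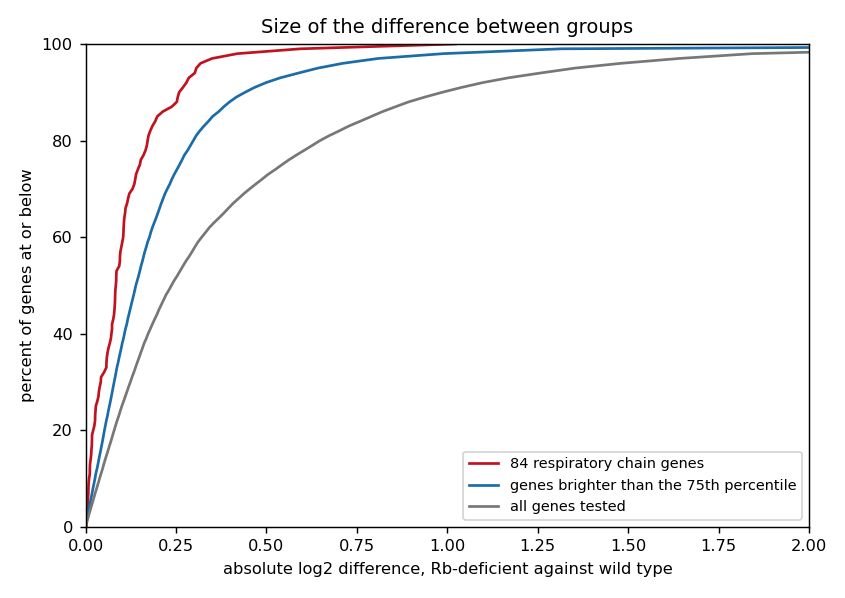
Cumulative percent of genes (vertical axis) by absolute log2 difference between the groups (horizontal axis) for the 84 respiratory chain genes, 10396 genes brighter than the 75th percentile and all 26380 genes. The line of the respiratory chain genes reaches 50% at 0.084, to the left of 0.14 and 0.24 for the others.

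Samples of the same genotype were also close to each other in these genes. The gap between the 2 wild type samples had a median of 0.071 and that between the 2 Rb-deficient samples one of 0.10, where all genes gave 0.28 and 0.31 and the brighter genes 0.17 and 0.20. The difference between groups was larger than the gap between samples in both groups for 26 of the 84 members, or 31.0%, against 22.6% of all genes and 23.8% of the brighter genes. Values of the groups did not overlap for 39 members, 46.4%, against 36.0% of all genes. Of these, 30 were higher in both Rb-deficient samples, 35.7% of the members against 15.3% of all genes and 24.3% of the brighter genes, and 9 were lower, 10.7% against 20.7% and 11.7%. The median over the members, relative to the wild type mean, was 0.043 in Rb-deficient sample 1 and 0.082 in sample 2. In the brighter genes it was 0.050 and 0.062.

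The scale of the arrays set where the members stood around 0. When arrays were scaled to their medians instead, the members' median was 0.51 with 82 of 84 higher, and that of all genes moved from -0.068 to 0.37. Both scalings subtract 1 constant per array, so relative to all genes the members had to stand equally high with either, at 0.14. After quantile normalization they stood 0.019 higher than all genes. A common direction of the respiratory chain genes of this size therefore depends on the scaling. The sizes above and the values below are to be read relative to it. In particular, the negative differences of Ndufs6, Sdhb, Uqcrq, Cox4i1, Cox8b and Atp5o given below are above 0 with median scaling.

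**Figure D3:**
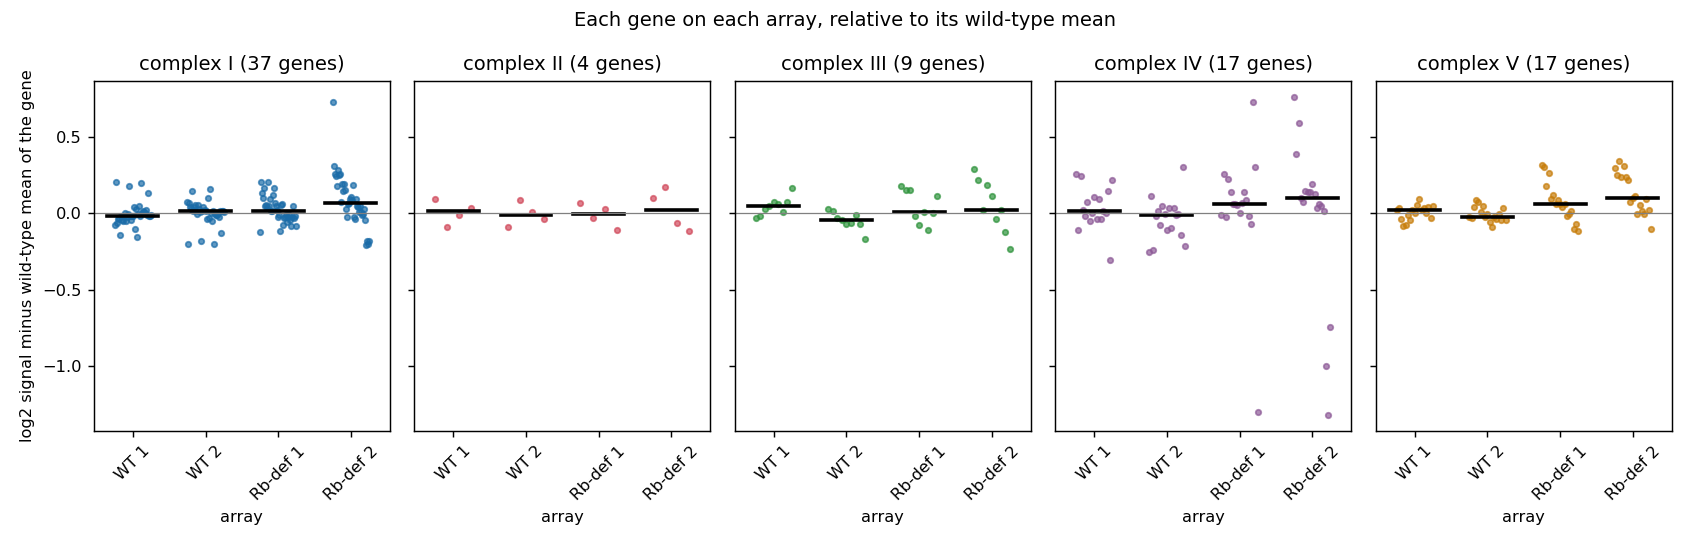
Log2 signal of each gene on each array minus its mean over the wild type arrays, by complex, where WT 1 and WT 2 are the wild type samples and Rb-def 1 and Rb-def 2 the Rb-deficient samples, and black bars are medians. The medians of complexes I and V in Rb-deficient sample 2 are 0.069 and 0.10, and the points far from 0 in complex IV are isoform genes.

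Complex I, the NADH dehydrogenase, was measured by 37 genes, counted by symbol and with Ndufa4l2 among them. Their median difference was 0.043, with 26 higher and 11 lower, and none had an unadjusted p under 0.05. The 29 accessory subunits of wide expression, which surround the catalytic core, had differences from -0.13 to 0.26 with a median of 0.043. The lowest of complex I was that of Ndufs6, an accessory subunit with a zinc site. Its log2 signal was 5.74 and 5.76 in the wild type samples and 5.67 and 5.57 in the Rb-deficient samples. Both Rb-deficient values lay below the wild type values, but the difference of -0.13 had a standard error of 0.17 and an adjusted p of 0.88 in limma.

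The highest difference among the genes counted with complex I by symbol was that of Ndufa4l2, a gene induced by hypoxia whose product resembles Ndufa4. The next, 0.26, was that of Ndufc2, named after its values were seen. Ndufa4l2 had log2 signals of -0.18 and -0.031 in the wild type samples and -0.23 and 0.62 in the Rb-deficient samples. Only Rb-deficient sample 2 stood apart, the groups overlapped, and without that sample the difference turned from 0.30 to -0.12. Ndufa4, which was named after complex I and is now known as a subunit of complex IV, had log2 signals of 3.61 and 3.65 in the wild type samples and 3.77 and 3.70 in the Rb-deficient samples. Its difference was 0.11 with a standard error of 0.17, and both Rb-deficient values were higher.

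Complex II, succinate dehydrogenase, is also an enzyme of the citric acid cycle and has 4 subunits, all of nuclear origin. Its differences ran from -0.11 to 0.085 with a median of 0.026, which lay below 0 with quantile normalization (-0.024). Sdhb, the iron-sulfur subunit, had log2 signals of 5.07 and 5.001 in the wild type samples and 4.93 and 4.92 in the Rb-deficient samples. Both Rb-deficient values were lower, by -0.11 in mean with a standard error of 0.17, and the other probe of Sdhb differed by -0.070. Sdhd, a membrane anchor, had 4.50 and 4.32 in the wild type samples and 4.48 and 4.51 in the Rb-deficient samples, and its groups overlapped. Sdha, the flavoprotein, and Sdhc, the other anchor, lay between these in difference.

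Complex III, the cytochrome bc1 complex, was measured by 9 genes with differences from -0.061 to 0.23 and a median of 0.018. Uqcrc2, a core protein, had the highest. Its log2 signal was 4.10 and 4.16 in the wild type samples and 4.31 and 4.42 in the Rb-deficient samples. The groups did not overlap, and the difference of 0.23 had a standard error of 0.18 and an adjusted p of 0.86 in limma. Uqcrq, a small subunit, had the lowest, with 6.84 and 6.501 in the wild type samples and 6.78 and 6.43 in the Rb-deficient samples. Its values split by replicate number rather than by group, and its difference of -0.061 was 0.11 without wild type sample 1. The complex median itself was 0.11 without wild type sample 1 and -0.051 without wild type sample 2.

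Complex IV, cytochrome c oxidase, was measured by 17 genes and had differences from -1.02 to 0.38 with a median of 0.095. Its 11 genes of wide expression, Cox7a2l among them, ran from -0.028 to 0.32, the next highest difference being 0.16. Of these 11, 10 were higher and 1 lower in mean. Without overlap 7 were higher, where 15.3% of all genes and 24.3% of the brighter genes were. Cox6a1 had log2 signals of 7.47 and 7.54 in the wild type samples and 7.59 and 7.56 in the Rb-deficient samples. Cox8a had 6.77 and 6.84 against 6.87 and 6.93. For both, the Rb-deficient samples lay just above the wild type samples, by 0.073 and 0.095 with standard errors of 0.17. Cox7a2 had 5.14 and 5.13 in the wild type and 5.19 and 5.28 in the Rb-deficient samples, and Cox6b1 1.95 and 2.05 against 2.06 and 2.13. The differences of these subunits, 0.095 and 0.099, were again below their standard errors of 0.17 and 0.18. The highest of the widely expressed genes was Cox7a2l, a factor that joins complexes III and IV into supercomplexes, named after its values were seen. It had 6.10 and 6.32 in the wild type and 6.47 and 6.59 in the Rb-deficient samples, without overlap, a difference of 0.32 with a standard error of 0.19 and an adjusted p of 0.86 in limma.

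Other subunits of wide expression overlapped between the groups. Cox4i1 had 5.59 and 5.58 in the wild type and 5.51 and 5.60 in the Rb-deficient samples, a difference of -0.028. Cox7b, on the X chromosome, had 4.22 and 4.03 against 4.26 and 4.16. Cox5a, whose promoter is shown above, had 4.67 and 4.52 against 4.66 and 4.74, a difference of 0.10. Cox7c had 3.79 and 3.77 against 3.77 and 3.83, but its probes disagreed. The dimmer probe of Cox7c had 2.07 and 1.95 in the wild type and 2.88 and 2.87 in the Rb-deficient samples, a difference of 0.87 where the brighter probe gave 0.015. Cox7c is thus uncertain, and it was singled out after its values were seen.

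Isoform genes of restricted tissue range varied more between samples than the other members. The 7 that were measured had a median absolute difference of 0.30 and median gaps of 0.43 between the wild type and 0.77 between the Rb-deficient samples, against 0.081, 0.066 and 0.095 for the 77 other members. Their widely expressed partners are Cox4i1, Cox6a1, Cox6b1, Cox7a2, Cox7b, Cox8a and Ndufa4. Of the 7, 4 were higher and 3 lower in mean. The groups did not overlap for 1 of the 7, where they did not for 36.0% of all genes and 36.0% of the brighter genes. In mean, 5 of the 7, all but Cox6a2 and Ndufa4l2, lay below the 75th percentile of the array, as did 1 other member, Ndufab1, and the part of low signal in their spread was not tested.

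Cox7b2, an isoform of subunit VIIb, had the largest difference of all members. Its log2 signal was -3.20 and -3.63 in the wild type samples and -4.71 and -4.16 in the Rb-deficient samples. Both Rb-deficient samples lay below both wild type samples, 2.03-fold lower in mean, with a log2 difference of -1.02, a standard error of 0.31 and a 95% interval from -1.89 to -0.16. In limma its unadjusted p was 0.031 and its adjusted p 0.82, so that it was not called. With normexp background correction the difference was -0.35, with quantile normalization -0.44 and with median scaling -0.58. The difference was -0.74 without Rb-deficient sample 1 and -1.30 without Rb-deficient sample 2. The median difference over all genes was -0.068 with the filter on dim probes and -0.24 without it. The part of low signal in the Cox7b2 difference was not tested.

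Cox6a2, the isoform of subunit VIa known from heart and skeletal muscle, was well above background on all arrays. Its log2 signal was 5.21 and 5.82 in the wild type samples and 5.82 and 4.198 in the Rb-deficient samples. Rb-deficient sample 1 equalled the higher wild type sample and Rb-deficient sample 2 lay below both. The difference of -0.51 had a standard error of 0.65, and without Rb-deficient sample 2 it was 0.30. Cox8b, an isoform of striated muscle and brown fat, was also lowest in Rb-deficient sample 2, with -3.49 and -3.78 in the wild type and -2.91 and -4.63 in the Rb-deficient samples. Its difference of -0.14 turned to 0.73 without that sample.

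Markers of striated muscle were read in the same islets. Of 7 such markers, Ckm, Myh1, Myh4 and Mb had no probe well above background on both arrays of a group, and Mb had none on any array. The 3 measured were Acta1, Tnnt3 and Myl1. Acta1 had log2 signals of -1.70 and -2.44 in the wild type and -2.78 and -2.11 in the Rb-deficient samples. Tnnt3 had -1.45 and -1.95 against -1.81 and -1.79, and neither was lowest in the sample where Cox6a2 was. Myl1 was well above background in the wild type samples alone, at least 1.70-fold lower in Rb-deficient islets. It was not called by limma, with an adjusted p of 0.38, and another of its probes was well above background on no array. In Rb-deficient sample 2, where Cox6a2 was lowest, the median of the 10 beta markers was -0.083 relative to the wild type mean. Of these markers Ins1, Ins2, Iapp and G6pc2 were lowest of the 4 arrays in that sample, and Slc30a8, Pdx1 and Mafa were highest there. The 5 alpha cell markers had a median of -1.19 in that sample, and Gcg, the glucagon gene, had 9.34 and 9.44 in the wild type and 9.26 and 7.96 in the Rb-deficient samples. The 10 acinar markers were at -1.13. The part of any of these in the Cox6a2 value was not tested.

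Cox7a1, the muscle isoform of subunit VIIa, had log2 signals of -1.05 and -1.55 in the wild type and -1.31 and -0.54 in the Rb-deficient samples. Cox6b2, an isoform of testis, had -1.47 and -1.96 against -1.74 and -1.13. Cox4i2, the isoform of subunit IV known from lung, had -0.27 and -0.49 against -0.38 and -0.19. In each of these the groups overlapped and the highest value was that of Rb-deficient sample 2, where the medians of several marker lists were also highest. These were 2.90 for 6 markers of proliferation, 1.69 for 2 of pancreatic polypeptide cells, 1.25 for 9 of macrophages and 0.90 for 4 of red cells. Further lists were at 0.88 for 2 of adipose tissue, 0.55 for 7 of fibroblasts and smooth muscle and 0.38 for 5 of endothelium. The red cell list was nearly as high in wild type sample 1, at 0.83. Of the adipose markers, Fabp4 was highest in Rb-deficient sample 2 and Cidea was not. The part of these lists was not tested. The differences of Cox7a1 and Cox6b2 were 0.38 and 0.28, and -0.0097 and -0.025 without that sample. Cox8c, a testis isoform, was well above background on 1 wild type array, sample 1, with -4.48 and -5.65 in the wild type and -7.29 and -7.50 in the Rb-deficient samples. Since it was measured on 1 array, the array where more probes had signal, no fold is given.

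**Figure D4:**
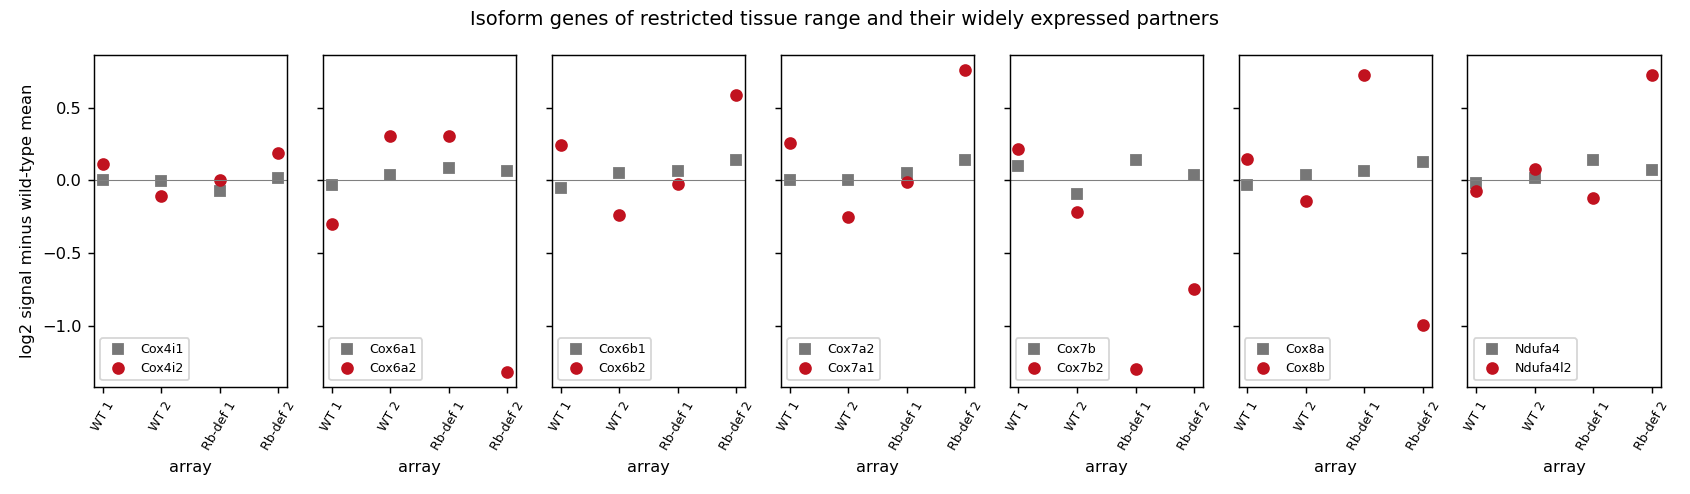
Log2 signal on each array minus the wild type mean of the gene, for 7 isoform genes of restricted tissue range (red circles) and their widely expressed partners (grey squares), with WT the wild type and Rb-def the Rb-deficient samples. The squares stay within 0.15 of 0, while Cox6a2 in Rb-deficient sample 2 lies at -1.32 and Cox7b2 in Rb-deficient sample 1 at -1.30.

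Complex V, the ATP synthase, was measured by 17 genes, with a median difference of 0.080, and 14 were higher and 3 lower in mean. The 5 subunits of the catalytic F1 part, Atp5a1, Atp5b, Atp5c1, Atp5d and Atp5e, had differences from -0.026 to 0.25 with a median of 0.14. The 12 others, which form the membrane rotor, the stalk and small associated proteins, ran from -0.11 to 0.31 with a median of 0.079. Both Rb-deficient samples lay above both wild type samples for 9 of the 17, against 15.3% of all genes and 24.3% of the brighter genes, and below them for 1, against 20.7% and 11.7%. Atp5a1 and Atp5h, of the catalytic part and the stalk, were chosen after their values were seen. Atp5a1 had log2 signals of 6.27 and 6.44 in the wild type and 6.62 and 6.59 in the Rb-deficient samples, and its other probe gave a difference of 0.090 where this one gave 0.25. Atp5h had 5.87 and 5.95 against 6.09 and 6.25, a difference of 0.26, and its 2 other probes gave 0.095 and 0.12.

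Atp5md, a small subunit linked to dimers of the enzyme, had the largest difference of complex V. Its log2 signal was 4.97 and 4.92 in the wild type samples and 5.26 and 5.24 in the Rb-deficient samples. The gaps within the groups were 0.042 and 0.016, and the other probe of Atp5md gave the same difference, 0.31. Its standard error in limma, which borrows spread from all genes, was 0.17, and its adjusted p was 0.86. Atp5o, the subunit that joins the stalk to F1 and is known for conferring oligomycin sensitivity, was lowest. It had 5.50 and 5.41 in the wild type and 5.34 and 5.36 in the Rb-deficient samples, a difference of -0.11, and its other probe gave -0.098.

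A set of 3 genes encodes the same mature c subunit of the rotor ring. Atp5g1 had log2 signals of 5.73 and 5.67 in the wild type and 6.001 and 5.95 in the Rb-deficient samples. Atp5g2 had 5.85 and 5.99 against 6.02 and 6.23. Atp5g3 had 5.83 and 5.76 against 5.80 and 5.81. Both Rb-deficient samples were above both wild type samples for Atp5g1 and Atp5g2, with differences of 0.28 and 0.20, while the groups overlapped for Atp5g3, at 0.0070. The other probe of Atp5g1 gave 0.40. The adjusted p values in limma were 0.86, 0.87 and 0.99, and the differences among these genes were not tested.

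Of the 84 genes, 3 lie on the X chromosome, where wild type sample 1 differs from the other samples in Xist. Ndufb11 had 6.13 and 6.16 in the wild type and 6.21 and 6.21 in the Rb-deficient samples. Ndufa1 had 5.80 and 5.54 against 5.71 and 5.46, and Cox7b is given above. In Ndufa1 and Cox7b wild type sample 1 was above wild type sample 2, by 0.26 and 0.19, and in Ndufb11 the samples differed by 0.030. Probes of the same gene mostly gave like differences. A further 19 probes of 17 members passed the filter, with a median disagreement of 0.050 and 4 of opposite sign, in Atp5b, Ndufa3 and Ndufa5, and Cox7c was the farthest apart.

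Other genes of the mitochondrial pathway were read from the same fit, in lists that hold no member, and none was called or had an unadjusted p under 0.05. Their medians stand beside -0.068 over all genes and 0.051 over the brighter genes. Their counts higher in mean stand beside 41.9% of all genes and 60.5% of the brighter genes. The lists were read with the 75th percentile scaling alone. Of 43 assembly factors, which build the complexes, 34 were higher and 9 lower in mean, with a median of 0.099. Cox18, an insertase for a core subunit of complex IV, had 1.29 and 1.36 in the wild type and 1.59 and 1.70 in the Rb-deficient samples. The median of the list relative to the wild type mean was 0.013 in Rb-deficient sample 1 and 0.19 in sample 2. Of 78 mitochondrial ribosomal proteins 69 were higher, with a median of 0.10 and shifts of 0.063 and 0.18. Mrpl49, of the large subunit, had the smallest p, with -0.035 and 0.17 in the wild type and 0.44 and 1.00 in the Rb-deficient samples.

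Of 19 genes of the citric acid cycle and pyruvate entry 14 were higher, with a median of 0.11. Fh1, fumarate hydratase, had 4.33 and 3.93 in the wild type and 4.33 and 4.45 in the Rb-deficient samples, so that wild type sample 2 alone stood low. Of 20 electron carriers, exchangers and uncoupling genes 15 were higher, with a median of 0.11. Coq2, of ubiquinone synthesis, had 3.47 and 3.47 against 3.72 and 3.66. The 20 genes of mitochondrial transcription and biogenesis had a median of 0.027, with 12 higher and 8 lower. Tfam, which packages and transcribes mitochondrial DNA, had 1.13 and 1.16 in the wild type and 1.36 and 1.501 in the Rb-deficient samples. Nrf1, whose motif is marked above, had -0.50 and -0.21 against -0.18 and 0.052. In both, the Rb-deficient samples were above the wild type samples, by 0.29, with adjusted p values of 0.86 in limma.

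The largest difference in that list was that of the coactivator gene Ppargc1a, chosen after its values were seen. It had a log2 signal of -0.63 in wild type sample 1 and -3.56 in wild type sample 2, against -3.23 and -3.85 in the Rb-deficient samples. Wild type sample 1 alone stood high, and the groups overlapped. Proliferation genes were the contrast on the same arrays. The 6 markers of that list, among them Mcm3 and Cdk1, were all higher in both Rb-deficient samples, as were 15.3% of all genes. Their median difference was 2.40, where the respiratory chain genes had 0.070. Cdk1, with -4.90 and -5.68 in the wild type samples, was well above background on only 3 arrays. No member of that list was called by limma over all genes.

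**Figure D5:**
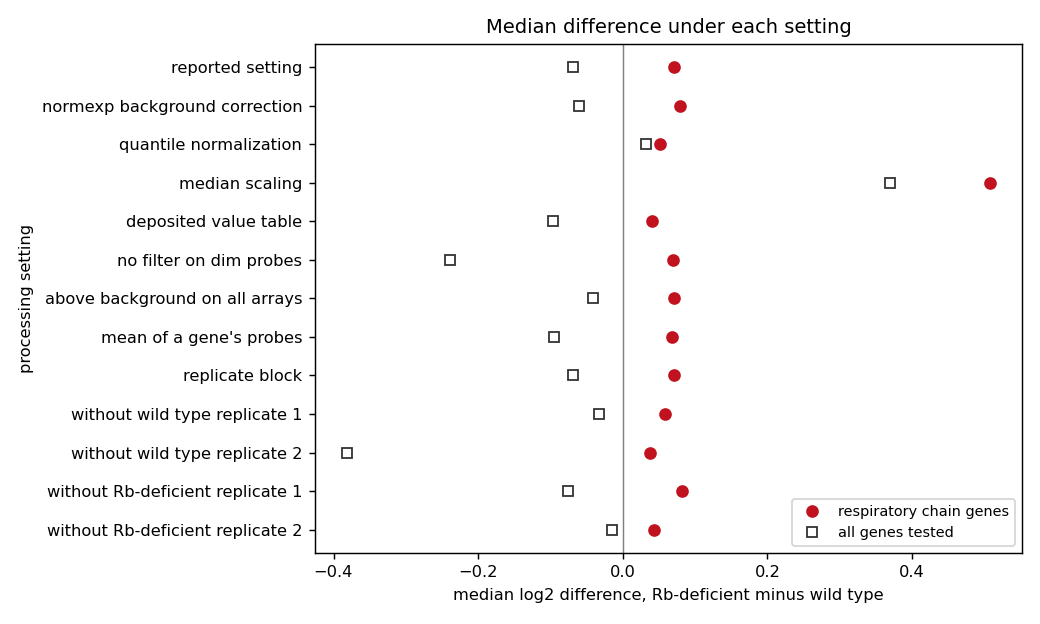
Median log2 difference, Rb-deficient minus wild type, of the respiratory chain genes (red circles) and of all genes tested (open squares) under each processing setting. The circles lie between 0.037 and 0.082 except with median scaling, where they stand at 0.51 and the squares at 0.37.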

How the data were processed

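Each array was deposited as a table of spot intensity from the scanner. The tables come from Feature Extraction 12.0.3.1 by Agilent with 1 colour, per the file headers, the processed intensity being background-subtracted and detrended and not scaled between arrays, with the probe design annotated on mm9. Control spots and outlier spots (64 to 93 per array) were left out, and no spot was saturated. The 75th percentile that was subtracted lay at 361 to 488 intensity units. A probe stayed in where both samples of either genotype had it well above background, and the brightest probe stood for a gene. Probe accessions, with versions dropped, were looked up in a RefSeq table of GRCm38.p6, which named 32994 of 56605 probes (58.3%). The values of 1 gene are not reported here by name. Groups and replicate numbers came from the sample titles.

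The fit was limma 3.58.1 in R 4.3.3, two-sided, over 26380 genes with Benjamini-Hochberg adjustment and a threshold of 0.05, tested on simulated data. It had 2 residual degrees of freedom and a prior worth 1.82, and an exact permutation test of 2 against 2 cannot go below 0.333. The number of arrays limits the precision. Members, lists and tests were chosen with earlier results of these data known. Values were printed for the highest and lowest member of each complex, members with p under 0.05 or a 2-fold difference, the isoform genes with their partners and the c subunit genes, at most 3 genes of a pathway list, and others said to be chosen later. An "at least" fold sets the wild type mean against the higher of the lowest signal well above background on each array and the probe's own. The deposited value table of the series, used as an alternative, holds the same intensity times 1.74 to 2.49 per array, with column medians of 220.06, 180.70, 188.30 and 157.33. It is linear and not centred, and what set the constants stays unknown. The normexp alternative used the median spot and background intensity of the deposited files, with an offset of 50.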

Additional observations from a re-analysis of the deposited data

How the results depend on the processing

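With 2 samples a group no setting gave a called respiratory chain gene, except that without wild type replicate 2 there was 1, Cox8c, which was then judged above background on wild type sample 1 alone. The count of called members thus lay between 0 and 1 with an array left out, and limma called 4102 of all genes without wild type replicate 2. The replicate number is not stated to pair samples. Deviations of same-numbered samples correlated at 0.30 over all genes and -0.17 over the members, and with the replicate block 0 members were called and the lowest adjusted p was 0.43, where the other settings gave 0.039, for Cox8c, to 0.99999. The replicate block changed no median, since every group has the same numbers. All 4 arrays shared 1 slide, so no slide block could be fitted.

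The members' median stayed above 0 in every setting run, from 0.037 to 0.082 with an array left out, at 0.041 with the deposited value table and at 0.51 with median scaling. With median scaling the medians of complexes I to V were 0.48, 0.46, 0.46, 0.53 and 0.52. With an array left out they ranged from 0.018 to 0.069 for complex I, -0.023 to 0.019 for complex II, -0.051 to 0.11 for complex III, 0.033 to 0.10 for complex IV and 0.056 to 0.11 for complex V. Complex II was at 0.042 with normexp, -0.024 with quantile normalization, -0.0038 with the value table and 0.016 with the mean of a gene's probes, and complex V at 0.13 with normexp. With the value table complex III was at -0.012 and complex I at 0.013, complex III was at 0.038 with quantile normalization, and complex I at 0.070 with normexp, each within 1 SD of the array medians. Median scaling adds a constant, and the cause of the other shifts was not tested.

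Directions of single genes turned as follows. With median scaling Ndufs6 was at 0.31, Sdhb at 0.33, Uqcrq at 0.38, Atp5o at 0.33, Cox8b at 0.30 and Cox4i1 at 0.41. With normexp Cox4i1 was at 0.0077. With quantile normalization Uqcrq was at 0.038, Cox8b at 0.50 and Cox7c at -0.044. With the value table Atp5g3 was at -0.023 and Cox7c at -0.014. With an array left out, the difference ranged from -0.23 to 0.11 for Uqcrq, -0.997 to 0.73 for Cox8b, -0.0059 to 0.18 for Sdhd, -0.014 to 0.20 for Cox4i2, -0.010 to 0.18 for Cox7b, -0.028 to 0.042 for Atp5g3, -0.072 to 0.017 for Cox4i1, -0.12 to 0.72 for Ndufa4l2, -0.0097 to 0.76 for Cox7a1, -1.32 to 0.30 for Cox6a2, -0.025 to 0.59 for Cox6b2 and -0.015 to 0.046 for Cox7c. Where a group kept 1 array, that sample is assumed to vary like the samples of the other group.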
